A study of Mus musculus with 12 samples.

Results

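The forkhead transcription factors share a winged-helix DNA-binding domain and are named Fox, followed by a subfamily letter and a number. In the expression table of E15.5 mouse zeugopod chondrocytes, 44 of 36186 rows carried a symbol of this form, and all 44 were taken as members. Of these, 18 reached 5 NRPKM in at least 3 of the 12 libraries and are described in detail, 40.9% of the forkhead rows against 30.2% of all rows. NRPKM is a read number scaled to transcript length and library size, with a further adjustment between libraries made by the authors. It is a value per length, so levels can be compared between genes.

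The libraries came from the forelimb zeugopod (radius and ulna) of embryos on a mixed 129/CD-1 background, with cells cut out by laser capture microdissection (LCM). There were 3 libraries each from WT resting, WT proliferative and WT hypertrophic chondrocytes and from aadd mutants, which carry frameshift mutations in both alleles of Hoxa9, Hoxa10, Hoxa11, Hoxd9, Hoxd10 and Hoxd11. The sample labels call the hypertrophic compartment hyperproliferative. The aadd libraries are labelled as resting, but the whole undifferentiated chondrocyte population of the mutant was captured, with some perichondrial cells in every capture. The study's text describes the libraries as independent sets, but whether each came from its own embryo is not stated, so the P values measure the spread between these samples.

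In the growth plate, chondrocytes pass from a resting through a proliferative to a hypertrophic state. Forkhead factors act at several of these steps: FoxO factors are held out of the nucleus by insulin and PI3K-Akt signalling and switch on genes of cell cycle arrest, stress resistance and autophagy, Foxp1, Foxp2 and Foxp4 are repressors that bind Runx2 and restrain hypertrophy, and Foxa2 and Foxa3 are known as activators of hypertrophic genes. Foxm1 drives genes of mitosis, and Foxc1 and Foxc2 are needed in mesenchyme that forms skeleton and vessels.

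The depth read from single-exon genes was 1886792 to 3236246 reads per library. Chondrocyte markers summed to between 2170 and 4420 NRPKM in all libraries except WT hypertrophic replicates 2 and 3, at 638 and 910. Those 2 libraries also carried endothelial markers (324 and 227 against at most 59.9 NRPKM elsewhere), osteoclast markers (1350 and 995 against at most 51.5) and macrophage markers (253 and 223 against at most 44.3). Hypertrophic replicate 1 had none of these excesses and stood apart from its group, at a root mean square log2 distance of 0.712 from the proliferative mean and 1.03 from the mean of hypertrophic replicates 2 and 3. The main changes that rest on the hypertrophic group are therefore given with and without it. Without it the share of all genes called, by the criteria given below, also rose, from 9.67% to 18.4% against proliferative and from 13% to 19.2% against resting cells. Hypertrophic chondrocyte markers summed to 1530 to 3590 NRPKM in the hypertrophic, 483 to 762 in the proliferative, 27.2 to 44.1 in the resting and 19.5 to 29.5 in the aadd libraries. Epidermis markers summed to 124 NRPKM in WT resting replicate 2, against 2.20 to 13.2 in the other libraries. The part of skin RNA in the values of that library was not tested. The mutated Hox genes were still transcribed in aadd: Hoxd11 read 25.1 to 35.4 NRPKM against 4.34 to 7.31 in WT resting, and Hoxa11 5.17 to 11.1 against 11.3 to 30.5. Replicate 2 of each WT group and replicates 1 and 2 of aadd had Y-linked transcripts and little Xist, and the other 7 libraries the reverse, so that each group held RNA of at least 2 embryos and same-numbered WT libraries shared this pattern.

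The most abundant forkhead mRNA over the 12 libraries was Foxm1, with a mean of 30.0 ± 7.14 NRPKM (SD, n = 12), followed by Foxo3 with 27.9 ± 5.74, Foxc1 with 27.0 ± 7.02 and Foxp4 with 26.6 ± 8.77. These levels overlapped, so the order among the 4 is not resolved. At the low end of the 18 stood Foxa2, with 3.64 ± 2.37 NRPKM and between 3.07 and 35.7 reads per library. Of the 18 genes, 11 were at 5 NRPKM or more in all 12 libraries. No gene of the 18 reached 5 NRPKM in 1 group alone, so none had entered only through the group where it was high.

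**Figure D1:**
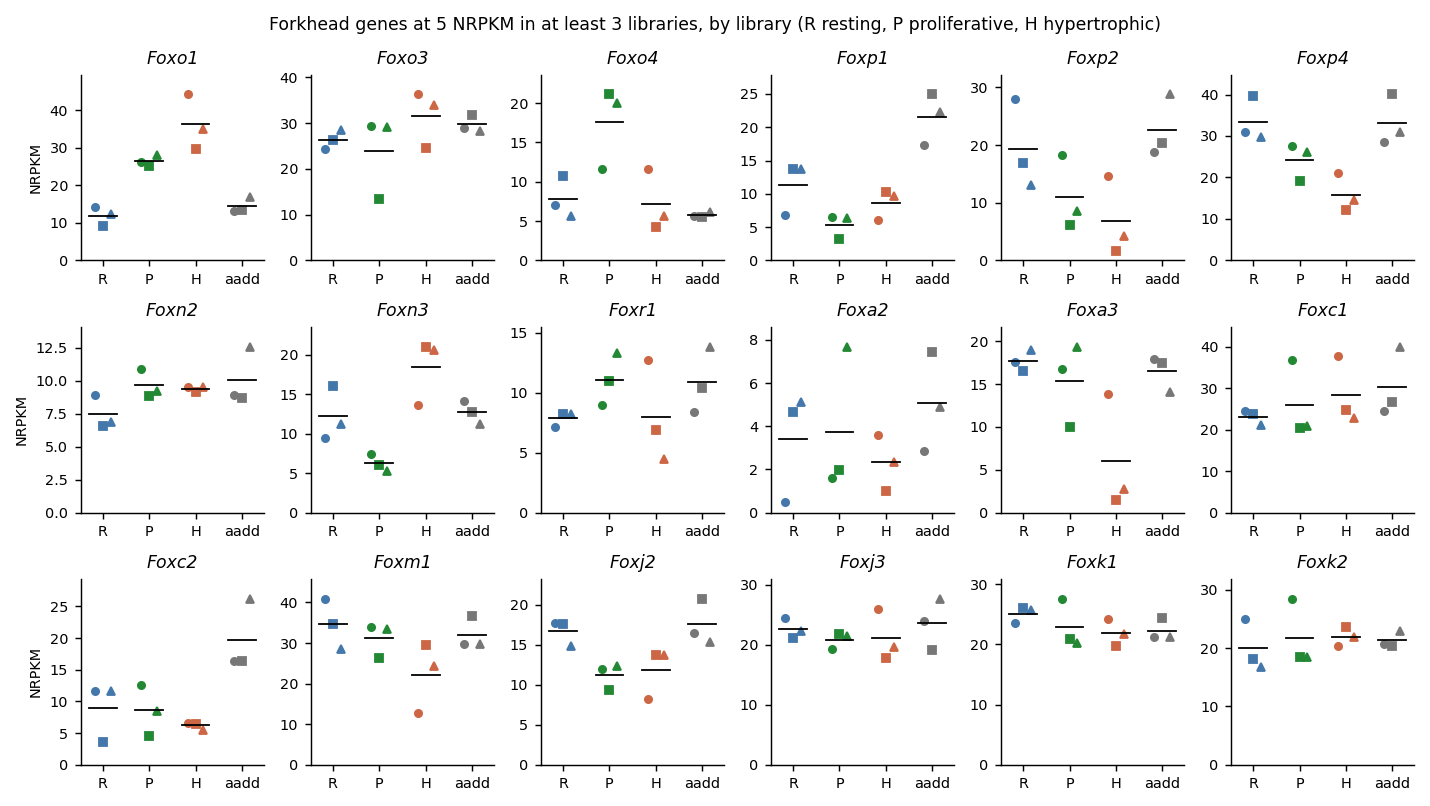
NRPKM of the 18 forkhead genes in each library (linear axes from 0), with R, P and H for WT resting, proliferative and hypertrophic. Circles, squares and triangles are replicates 1, 2 and 3, and black lines are group means. Foxo1 is higher in P and H than in R, Foxp1 and Foxc2 lie highest in the 3 aadd libraries, and the Foxj3, Foxk1 and Foxk2 groups overlap.

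A comparison of the 4 groups in limma's moderated F test called 4 forkhead genes at an adjusted P (Benjamini-Hochberg over all genes) under 0.05, 22.2% of the 18, beside 13.8% of the 10936 genes tested. They were Foxo1 (adjusted P = 0.0023), Foxn3 (adjusted P = 0.011), Foxp1 (adjusted P = 0.018) and Foxp4 (adjusted P = 0.031). Foxo1 and Foxn3 passed in all 17 alternative analyses, Foxp1 in 14 and Foxp4 in 9. Without hypertrophic replicate 1 the count was 7, with Foxa3, Foxo4 and Foxp2 added, beside 28.1% of all genes. Without aadd replicate 2, and also without aadd replicate 3, it was 2, with Foxp1 and Foxp4 lost, beside 10.6% and 9.27% of all genes.

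The RefSeq promoter table (GRCm38.p6, the assembly of mm10) held entries for 28 of the 44 genes and for 12 of the 18. For Foxo1, Foxp1 and Foxp4, 3 of the 4 genes that differed between groups, an entry began at the outer end of the gene's row, and the 250 bases before that start are shown to give the sequence beside the expression values. They lie at chr3:52268087-52268336 (+ strand), chr6:99520994-99521243 (- strand) and chr17:47924633-47924882 (- strand), read 5′ to 3′ along the gene. Capitals mark matches to the forkhead motif TGTTTAC or TGTTTGC, or its reverse complement GTAAACA or GCAAACA, and to the posterior Hox motif TTTATGG or TTTACGA, or its reverse complement CCATAAA or TCGTAAA.
Foxo1: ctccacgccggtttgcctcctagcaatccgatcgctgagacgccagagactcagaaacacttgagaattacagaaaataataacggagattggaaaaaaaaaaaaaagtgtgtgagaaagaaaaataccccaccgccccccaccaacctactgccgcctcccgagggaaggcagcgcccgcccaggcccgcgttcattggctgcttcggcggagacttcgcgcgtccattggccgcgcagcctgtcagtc
Foxp1: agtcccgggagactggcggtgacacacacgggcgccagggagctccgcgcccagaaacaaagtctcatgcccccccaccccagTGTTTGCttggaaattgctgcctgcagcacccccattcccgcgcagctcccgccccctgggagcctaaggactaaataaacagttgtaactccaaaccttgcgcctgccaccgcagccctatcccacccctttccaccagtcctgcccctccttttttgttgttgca
Foxp4: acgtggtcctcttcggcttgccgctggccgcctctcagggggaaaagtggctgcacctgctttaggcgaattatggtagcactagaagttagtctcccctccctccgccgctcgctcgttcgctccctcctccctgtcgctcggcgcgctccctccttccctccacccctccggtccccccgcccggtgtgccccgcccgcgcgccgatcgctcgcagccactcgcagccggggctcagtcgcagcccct

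The only match among the 3 was TGTTTGC in the Foxp1 promoter, 167 to 161 bases before the start. Of all 32851 promoters in the table, 7.29% held a forkhead motif and 2.9% a posterior Hox motif in this window. Among the 16 entries of those 12 genes, 2 held a forkhead motif (Foxj3 and Foxp1) and 0 a Hox motif. Over all 33 forkhead entries the median GC content was 62% and the observed over expected CpG ratio 0.704, beside 52.4% and 0.374 over all promoters. The values were 68% and 0.806 over these 16 and 60% and 0.619 over the 17 others. Promoters of other genes passing the filter were not summarized apart.

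The FoxO subfamily was led by Foxo3 in resting cells and by Foxo1 in hypertrophic cells. Foxo1, on chromosome 3 (mm10 chr3:52268337-52350109), read 14.1, 9.21 and 12.4 NRPKM in the 3 WT resting libraries, 26.3, 25.0 and 28.1 in WT proliferative, 44.2, 29.7 and 35.0 in WT hypertrophic, and 13.3, 13.4 and 16.9 in aadd. All 3 proliferative values lay above all resting values, and all 3 hypertrophic values above all proliferative values. The aadd libraries overlapped WT resting and stayed below every proliferative library.

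Between WT compartments a gene was called at an unadjusted P up to 0.05 in limma with a fold change (FC) of at least 2, and adjusted P is given beside each call. Between WT proliferative and WT resting cells, 3 of the 18 forkhead genes were called (Foxo1, Foxo4 and Foxp1), 16.7%, beside 5.53% of all genes tested. At an adjusted P under 0.05 limma called 0 of the 18 and 0.622% of all genes, whereas 6 of the 18 had an unadjusted P up to 0.05, 33.3%, beside 17.1% of all genes. The libraries of both groups did not overlap for 7 of the 18, 38.9%, beside 24% of all genes. Foxo1 rose by a log2 fold change of 1.16 (SE 0.20, limma adjusted P = 0.085). Without resting replicate 2 the change was 0.99, just under the fold limit. The call stood with replicate numbers as a block, at adjusted P = 0.096. In the hypertrophic compartment Foxo1 was higher than in the resting by 1.60 (SE 0.24, limma adjusted P = 0.02), a call that held in all 13 alternatives, and without hypertrophic replicate 1 it was 1.45 (adjusted P = 0.012). The step from proliferative to hypertrophic was 0.44 (SE 0.20, limma adjusted P = 0.30), and 0.28 without hypertrophic replicate 1, and did not pass.

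Foxo4, on chromosome X (chrX:101254528-101260873), had its highest values in proliferative cells. It read 7.07, 10.8 and 5.68 NRPKM in WT resting, 11.6, 21.1 and 20.1 in WT proliferative, 11.6, 4.25 and 5.59 in WT hypertrophic, and 5.64, 5.48 and 6.21 in aadd. Proliferative and resting libraries did not overlap, whereas hypertrophic replicate 1 met proliferative replicate 1. The rise from resting was 1.16 on the log2 scale (SE 0.33, limma adjusted P = 0.19), and 0.95 without resting replicate 3, under the fold limit. The fall into hypertrophic cells was -1.37 (SE 0.43, limma adjusted P = 0.20), and -1.78 without hypertrophic replicate 1 (adjusted P = 0.025). That fall was no longer called without proliferative replicate 2 (-1.22) or 3 (-1.25), or without hypertrophic replicate 2 (-1.07) or 3 (-1.26), nor with replicate numbers as a block (limma adjusted P = 0.31).

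Foxo3, the third FoxO gene of the 18, passed no comparison. It ranged from 24.4 to 28.6 NRPKM in WT resting, 13.4 to 29.4 in WT proliferative, 24.6 to 36.3 in WT hypertrophic and 28.4 to 31.8 in aadd. Of the summed FoxO level, Foxo1 made up 25.8% ± 5.58 (SD, n = 3) in WT resting, 39.1% ± 2.85 in WT proliferative, 48.6% ± 1.96 in WT hypertrophic and 29.0% ± 3.42 in aadd. Foxo3 made up 57.2% ± 3.86 of it in WT resting and 59.5% ± 3.96 in aadd. The sum itself was 45.6 to 46.7 NRPKM in WT resting and 47.9 to 51.6 in aadd, and 58.5 to 92.2 in the other WT libraries.

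**Figure D2:**
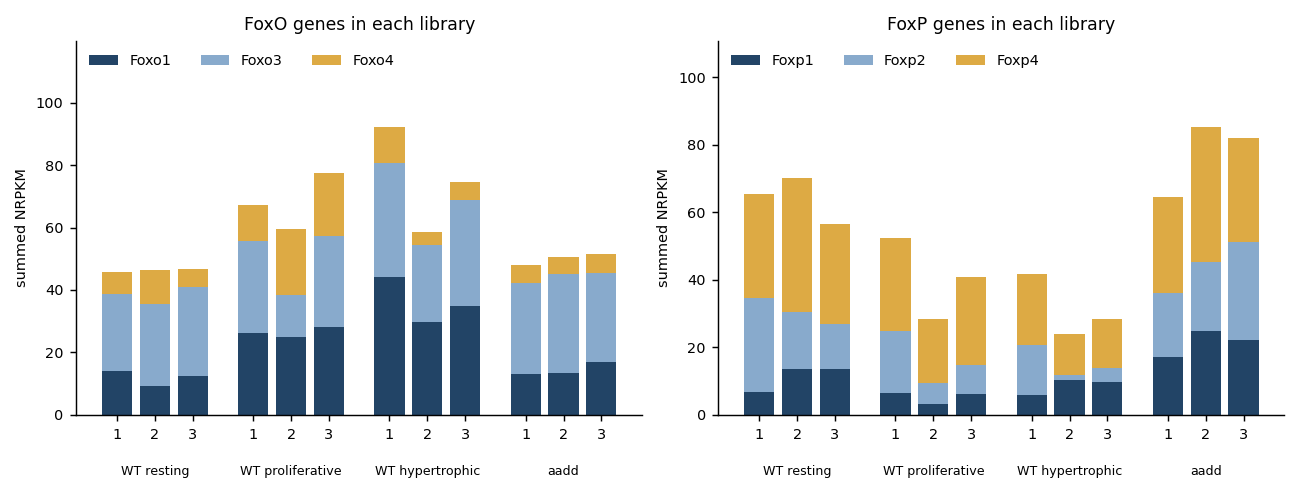
Summed NRPKM of the FoxO genes (left) and FoxP genes (right), 1 stacked bar per library, with replicate numbers under the bars. The Foxo1 segment is largest in WT hypertrophic libraries (29.7 to 44.2 NRPKM), and the FoxP sum is 56.4 to 70.1 in WT resting, 23.9 to 41.7 in WT hypertrophic and 64.5 to 85.3 in aadd.

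Genes around the FoxO factors were counted by 2 lists. Of 15 tested regulators of FoxO activity (kinases, phosphatases and cofactors), 0 were called between proliferative and resting cells by limma, beside 5.53% of all genes. At an unadjusted P up to 0.05 in limma there was 1, beside 17.1% of all genes. In hypertrophic cells 2 of the 15 were higher than in proliferative and also than in resting cells, Pik3ip1 and Pik3r1, and 0 were lower. The shares of all genes called in these comparisons were 9.67% and 13%. Pik3ip1, an inhibitor of PI3K, read 12.2, 23.9 and 23.4 NRPKM in WT hypertrophic against 1.68, 2.62 and 4.21 in WT resting, a log2 change of 2.79 (limma adjusted P = 0.018). Pik3r1, the regulatory subunit of PI3K, was higher by 1.20 (limma adjusted P = 0.077). Without hypertrophic replicate 1 these changes were 3.11 and 1.38 (limma adjusted P = 0.0052 and 0.031). In aadd against WT resting, 2 of the 15 were higher, among them Pik3r1 by 1.15 (limma adjusted P = 0.28), beside 6.56% of all genes called.

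Among 19 tested genes known as FoxO targets, 1 was higher in proliferative than in resting cells, beside 5.53% of all genes called. It was Cdkn1a, the cyclin-dependent kinase inhibitor p21, with a log2 change of 1.79 (SE 0.33, limma adjusted P = 0.088). Between hypertrophic and proliferative cells 5 were higher (Bcl2l11, Cdkn1a, Gabarapl1, Map1lc3b and Pdk4) and 1, Bnip3, was lower. In that comparison 9.67% of all genes were called, and the median log2 change was 0.455 over the list and 0.04 over all genes. Between hypertrophic and resting cells 3 were higher and 0 lower, beside 13% of all genes called. These were Cdkn1a (3.36, limma adjusted P = 0.0063), Pdk4, which restrains glucose oxidation (2.83, adjusted P = 0.0093), and Bcl2l11, which promotes apoptosis (2.12, adjusted P = 0.018). Without hypertrophic replicate 1 the counts were 7 higher and 1 lower against proliferative cells, and 5 higher and 1 lower against resting cells, in fits that also called more of all genes (18.4% and 19.2%). In aadd against WT resting, limma called 0 of the 19, beside 6.56% of all genes. At an unadjusted P up to 0.05 in limma there was 1 (Ccng2), beside 9.58% of all genes. The median was 0.21, with 0.01 over all genes. Endothelial, osteoclast and macrophage markers were high in 2 of the 3 hypertrophic libraries, and their part in these counts was not tested. In bulk samples of this kind, fewer cells of a type and less RNA per cell cannot be told apart.

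Of the 3 expressed FoxP genes, which encode repressors that dimerize with each other, Foxp1 was called lower in proliferative than in resting cells, and Foxp2 and Foxp4 lower in hypertrophic than in resting cells. Foxp1, on chromosome 6 (chr6:98925342-99520993), read 6.74, 13.7 and 13.7 NRPKM in WT resting, 6.54, 3.19 and 6.30 in WT proliferative, 6.04, 10.2 and 9.73 in WT hypertrophic, and 17.3, 24.9 and 22.3 in aadd. Proliferative values lay below all resting values, with resting replicate 1 close to proliferative replicate 1. The fall was -1.07 on the log2 scale (SE 0.39, limma adjusted P = 0.26), and it was no longer called with replicate numbers as a block (limma adjusted P = 0.26). The call was also lost without resting replicate 2 (-0.90), resting replicate 3 (-0.90) or proliferative replicate 2 (-0.74), with a pseudocount of 1 (-0.95), with quantile normalization (-0.99) and with no filter on low values.

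Foxp4 (chr17:47867133-47924632) had its highest WT mean in resting and its lowest in hypertrophic cells. It read 30.9, 39.6 and 29.6 NRPKM in WT resting, 27.5, 19.0 and 26.0 in WT proliferative, 21.0, 12.1 and 14.5 in WT hypertrophic and 28.5, 40.0 and 30.9 in aadd. Hypertrophic and resting libraries did not overlap, and aadd overlapped resting. The change from resting to hypertrophic was -1.10 (SE 0.26, limma adjusted P = 0.06), and -1.32 without hypertrophic replicate 1 (adjusted P = 0.01). Without resting replicate 2 it was -0.97 and without hypertrophic replicate 2 -0.92, both under the fold limit. Neither single step was called, with -0.47 from resting to proliferative cells (limma adjusted P = 0.33) and -0.63 from proliferative to hypertrophic cells (adjusted P = 0.27).

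Foxp2, a factor known for its role in speech circuits and also expressed in cartilage, varied most among the 18 genes, with an 18.4-fold range over the libraries. It read 27.9, 16.8 and 13.1 NRPKM in WT resting, 18.3, 6.15 and 8.49 in WT proliferative, 14.7, 1.57 and 4.30 in WT hypertrophic and 18.7, 20.3 and 28.8 in aadd. Hypertrophic replicate 1 overlapped the resting libraries and the other 2 did not. Replicate 1 was the highest library in each WT group, and at each replicate number the hypertrophic value lay below the resting value. Foxp2 was lower in hypertrophic than in resting cells by -1.95 (SE 0.78, limma adjusted P = 0.18), and by -2.77 without hypertrophic replicate 1 (adjusted P = 0.018). This fall was also called with replicate numbers as a block (limma adjusted P = 0.14). The call was lost without any of the other 5 libraries of that comparison, with changes of -1.19 to -2.19. Against proliferative cells it was called with replicate numbers as a block (-1.06, limma adjusted P = 0.30) and without hypertrophic replicate 1 (-1.88, adjusted P = 0.095), but in no other of these fits.

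The fourth FoxP gene, Foxp3, which marks regulatory T cells, was below 2 NRPKM in every library.

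Between hypertrophic and resting cells, 4 of the 18 genes were called, 22.2%, beside 13% of all genes, and at an adjusted P under 0.05 limma called 1, Foxo1, beside 6.36% of all genes. Libraries did not overlap for 5 of the 18, 27.8%, beside 32% of all genes. Beside Foxo1, Foxp2 and Foxp4 this was Foxa3, a pioneer factor that opens chromatin. Foxa3 (chr7:19013282-19023539) read 17.6, 16.5 and 18.9 NRPKM in WT resting, 16.7, 9.99 and 19.4 in WT proliferative, 13.8, 1.51 and 2.80 in WT hypertrophic and 18.0, 17.4 and 14.1 in aadd. The low values were those of hypertrophic replicates 2 and 3, and replicate 1 lay within the proliferative range. The change from resting was -2.14 (SE 0.75, limma adjusted P = 0.14), and -3.04 without hypertrophic replicate 1 (adjusted P = 0.0022). From proliferative cells it was -1.89 (limma adjusted P = 0.26) and was not called in the main fit. Without hypertrophic replicate 1 it was -2.78 (limma adjusted P = 0.014) and was called. This step was also called with replicate numbers as a block (limma adjusted P = 0.28) and with a pseudocount of 1. The same held with the filter over the 6 libraries compared and in 1 fit of all 12 libraries. The difference from resting cells was not called without any of the other 5 libraries, with changes of -1.48 to -2.19. In hypertrophic replicates 2 and 3 the chondrocyte marker sum was also low, 638 and 910 NRPKM against 2350 to 3410 in WT resting, and its part in the Foxa3, Foxp2 and Foxp4 values was not tested.

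Foxa2, its relative, passed in no comparison, with values of 0.48 to 5.13 NRPKM in WT resting, 1.61 to 7.69 in WT proliferative, 1.01 to 3.61 in WT hypertrophic and 2.86 to 7.45 in aadd. Libraries of a group differed several-fold, and the lowest value rested on 3.07 reads. The 7 genes of hypertrophy listed as Foxa2-driven are also the hypertrophic chondrocyte markers. All 7 were called higher in hypertrophic than in resting cells and 5 in proliferative than in resting cells, beside 13% and 5.53% of all genes. Mmp13 read 735 and 661 NRPKM in hypertrophic replicates 2 and 3 but 3.05 in replicate 1, against 2.45 to 2.88 in WT resting. Against proliferative cells 4 were higher and 0 lower in hypertrophic cells, beside 9.67% of all genes. Without hypertrophic replicate 1 it was 5 higher and 1 lower, Ihh (-1.21, limma adjusted P = 0.084), beside 18.4%. Against resting cells all 7 stayed higher, beside 19.2%. In aadd against WT resting, 1 of the 7 was lower, the channel gene Panx3, with a log2 change of -2.37 (limma adjusted P = 0.33). None was higher, beside 6.56% of all genes called in either direction.

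Between hypertrophic and proliferative cells, 2 of the 18 genes were called, 11.1%, near the 9.67% of all genes tested. By adjusted P, limma called 0 of all 10936 genes here, or 0%, of which 2115 had an unadjusted P up to 0.05, among them 2 of the 18. Libraries did not overlap for 2 of the 18, 11.1%, beside 24.2% of all genes. Besides Foxo4 the call was Foxn3, a repressor linked to the DNA damage checkpoint. Foxn3 (chr12:99195094-99563582) read 9.44, 16.0 and 11.2 NRPKM in WT resting, 7.45, 6.08 and 5.22 in WT proliferative, 13.7, 21.0 and 20.7 in WT hypertrophic and 14.1, 12.8 and 11.2 in aadd. The proliferative libraries were lower than those of each other group, without overlap. The rise into hypertrophic cells was 1.54 (SE 0.25, limma adjusted P = 0.12), was called in all 13 alternatives, and was 1.74 without hypertrophic replicate 1 (adjusted P = 0.01). From resting to proliferative cells it was -0.94 (SE 0.25, limma adjusted P = 0.17), under the fold limit, and past it at -1.11 without resting replicate 1 and -1.07 without proliferative replicate 1. The Foxn3 row overlaps 4 other rows of the table, and the Foxm1, Foxp1 and Foxp2 rows overlap 1 each. Whether reads were counted by strand is not stated, so reads of antisense or overlapping transcripts cannot be told apart from theirs.

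**Figure D3:**
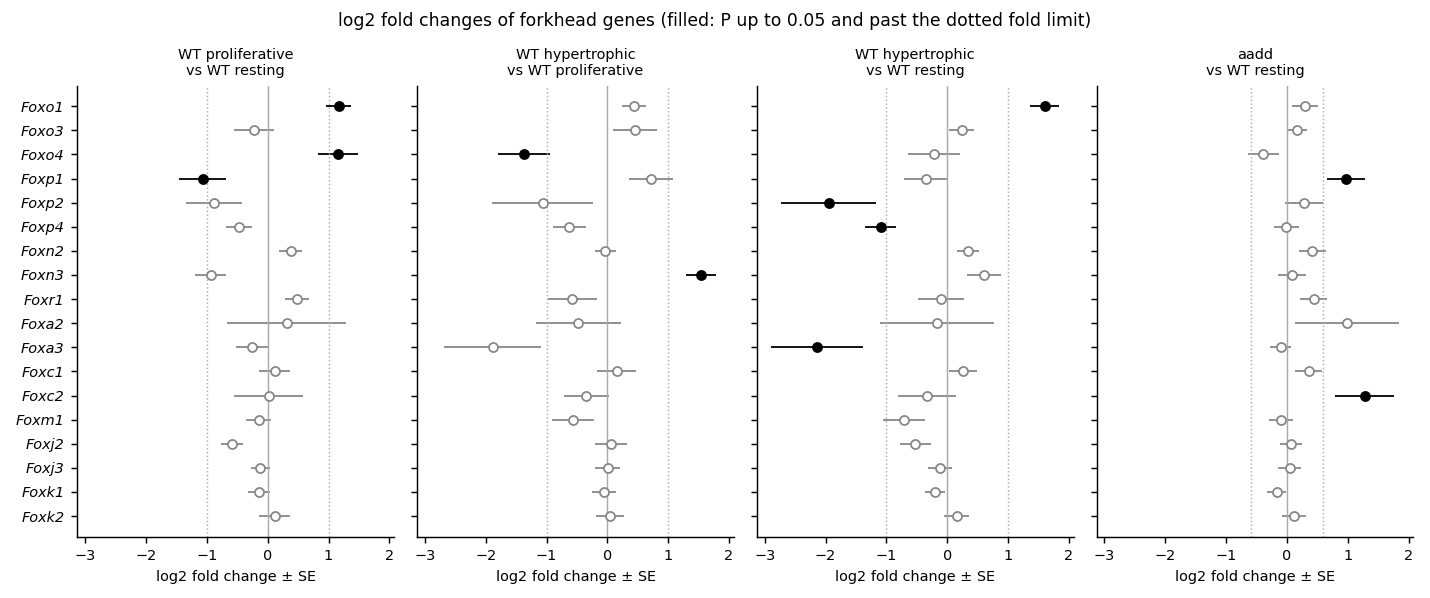
log2 fold changes of the 18 genes in the 4 comparisons, with bars of 1 SE and dotted lines at the fold limits (2 between WT compartments, 1.5 for aadd). Filled points passed P up to 0.05 and the limit: 3, 2, 4 and 2 genes from left to right. WT resting is shared by 3 of the comparisons, and WT proliferative and WT hypertrophic by 2 each.

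Several members of other subfamilies were called in no comparison. Foxk1 and Foxk2, which take part in the control of metabolism and autophagy, ranged from 19.7 to 27.5 and from 16.8 to 28.4 NRPKM over all libraries, and Foxj3 from 17.9 to 27.7. The F test of these 3 had limma adjusted P of 0.73, 0.92 and 0.82. Foxj2 was at 14.8 to 17.7 NRPKM in WT resting, 9.34 to 12.3 in WT proliferative, 8.23 to 13.7 in WT hypertrophic and 15.4 to 20.7 in aadd. Its resting libraries lay above all proliferative and all hypertrophic ones, with log2 changes of -0.58 and -0.52 (limma adjusted P = 0.21 and 0.24) that did not reach the fold limit, the second being -0.28 without hypertrophic replicate 1. Foxn2 ranged from 6.55 to 12.598 NRPKM, and Foxr1 from 4.43 to 13.8, with its resting libraries below all proliferative and all aadd libraries (log2 0.48 and 0.44, limma adjusted P = 0.29 and 0.60).

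Foxm1 read 40.9, 34.8 and 28.4 NRPKM in WT resting, 34.1, 26.2 and 33.4 in WT proliferative, 12.8, 29.4 and 24.3 in WT hypertrophic, and 29.9, 36.7 and 29.7 in aadd. The low value was that of hypertrophic replicate 1, and the groups overlapped. It was not called in any comparison, with -0.71 (SE 0.34, limma adjusted P = 0.25) between hypertrophic and resting cells, which was -0.36 without that library, and -0.15 (adjusted P = 0.75) between proliferative and resting cells. Of 14 tested Foxm1 targets, nearly all genes of mitosis, limma called 0 in each of the 4 comparisons. At an unadjusted P up to 0.05 and any fold there were 2 of 14 between proliferative and resting cells (beside 17.1% of all genes), 3 between hypertrophic and proliferative cells (beside 19.3%), 3 between hypertrophic and resting cells (beside 26.4%) and 0 in aadd (beside 9.58%). Their median log2 change was -0.44 between hypertrophic and resting and -0.39 between hypertrophic and proliferative cells, beside -0.02 and 0.04 over all genes. Without hypertrophic replicate 1 these medians were -0.22 and -0.18.

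In aadd mutants against WT resting cells, with a fold limit of 1.5, 2 of the 18 genes were called, 11.1%, beside 6.56% of all genes tested, and both were higher in the mutant. By adjusted P, limma called 0 of the 18 and 0.119% of all genes, and the 2 called had the only unadjusted P up to 0.05. Libraries did not overlap for 3 of the 18 (Foxc2, Foxp1 and Foxr1), 16.7%, beside 15.4% of all genes. Foxp1, whose values are given above, was higher by a log2 change of 0.97 (SE 0.31, limma adjusted P = 0.38). Each of the 3 aadd libraries was above all 9 WT libraries. The call was lost without aadd replicate 2 (0.86) or 3 (0.94).

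Foxc2, on chromosome 8 (chr8:121116171-121118894), read 11.7, 3.53 and 11.6 NRPKM in WT resting, 12.55, 4.61 and 8.55 in WT proliferative, 6.60, 6.46 and 5.55 in WT hypertrophic and 16.4, 16.4 and 26.2 in aadd. It too lay above all 9 WT libraries in each mutant library, on 98.0 to 204.5 reads. The difference from resting cells was 1.28 (SE 0.48, limma adjusted P = 0.46). It moved most, to 0.71, without resting replicate 2, the library with the high epidermis marker sum, and was still called there. Replicate 2 was also the lowest of the proliferative libraries. The difference between aadd and resting cells was not called without aadd replicate 1 (1.39), 2 (1.39) or 3 (1.05), or with no filter on low values. Foxc2 made up 39.2% ± 1.001 of the summed FoxC level in aadd and 26.9% ± 12.2 in WT resting (SD, n = 3). Foxc1, its close relative, read 24.5, 26.6 and 40.0 NRPKM in aadd and 20.3 to 37.7 in the WT libraries, and was not called (0.36, SE 0.22, limma adjusted P = 0.67).

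Over all 10936 genes tested, 2.82% lay above all 9 WT libraries in each aadd library and 1.09% below, whereas of the 18 forkhead genes Foxp1 and Foxc2 did the former and 0 the latter. In group means aadd was nearest to WT resting for 9 of the 18, to proliferative for 5 and to hypertrophic for 4. The same count was not taken over all genes, and it includes genes whose groups overlapped, such as Foxk1, Foxk2 and Foxj3. The perichondrium and connective tissue marker sum was 460, 880 and 477 NRPKM in aadd and 307, 572 and 550 in WT resting. The skeletal muscle marker sum was higher in each aadd library, at 34.4, 44.5 and 17.3 NRPKM against 7.33 to 9.38 in WT resting, though Myod1, Myf5 and Ckm stayed below 1 NRPKM throughout. The part of either in the Foxp1 and Foxc2 values was not tested. The captured populations also differed, since aadd cells were not divided into compartments, so that genotype and capture cannot be told apart. Sex was not balanced either, with Y-linked transcripts in replicates 1 and 2 of aadd and in replicate 2 of WT resting. Its part in these differences was not tested.

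Foxl1, a mesenchymal factor known from gut stroma, starts 8.79 kb beyond the end of Foxc2 (chr8:121127685-121130644) and was not among the 18. It read 3.49, 2.79 and 3.58 NRPKM in WT resting, 3.09, 2.47 and 4.09 in WT proliferative, 2.30, 0.83 and 1.44 in WT hypertrophic and 6.08, 5.26 and 4.39 in aadd. Its mutant libraries were likewise above all 9 WT libraries, and its hypertrophic libraries were below all others. In the fit with no filter, aadd was higher by 0.65 (SE 0.23, limma adjusted P = 0.74), a call beside 5.82% of all genes called in that fit. The log2 difference of hypertrophic cells was -1.16 from resting and -1.11 from proliferative cells (limma adjusted P = 0.24 and 0.42). The other rows within 100000 bases of Foxc2 were looked at after these values were seen. Mthfsd, which lies before Foxc2, read 5.09 to 7.32 NRPKM in aadd and 5.49 to 10.2 in WT, and Foxf1 and the non-coding Fendrr were below 2 in every library.

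**Figure D4:**
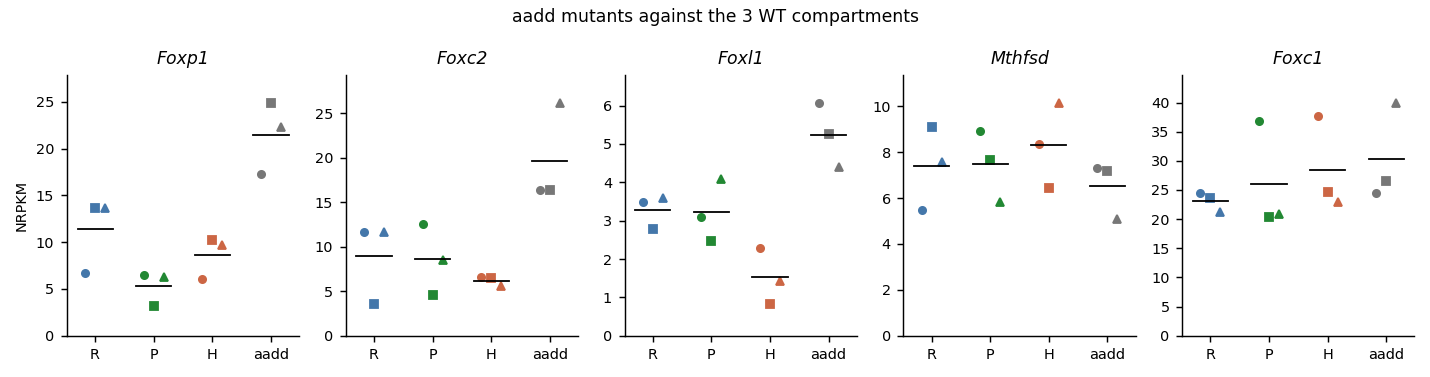
NRPKM by library (linear axes from 0) for the 3 forkhead genes whose aadd values lay above all 9 WT values, Foxp1, Foxc2 and Foxl1, beside Mthfsd and Foxc1, whose aadd and WT values overlap. Symbols are replicates 1 to 3 and lines are group means.

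Of the 26 forkhead rows below the level for detail, 4 were listed at 0 in all 12 libraries (Foxd3, Foxe1, Foxe3 and Foxl2, factors of neural crest, thyroid, lens and ovary). A further 12 never reached 1 NRPKM, and 7 peaked between 1 and 2. The remaining 3 were Foxl1, Foxd2 with a highest value of 2.39 NRPKM, and Foxs1. Foxs1, known from perivascular cells and from neural crest, had an uneven pattern. It was at 12.2 and 16.6 NRPKM in hypertrophic replicates 2 and 3, about 51.9 and 65.0 reads, and at 0.33 in hypertrophic replicate 1, on 1 read. In the other 9 libraries it had at most 2 reads. The hypertrophic mean was at least 11.1-fold higher than 3 reads per library in WT resting, 8.90-fold in WT proliferative and 11.0-fold in aadd, bounds that cover counting error only and rest on those 2 libraries. The endothelial marker sum was high in the same 2 libraries, at 324 and 227 NRPKM, and at 24.4 in hypertrophic replicate 1. The part of vessel cells in the Foxs1 values was not tested.

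**Figure D5:**
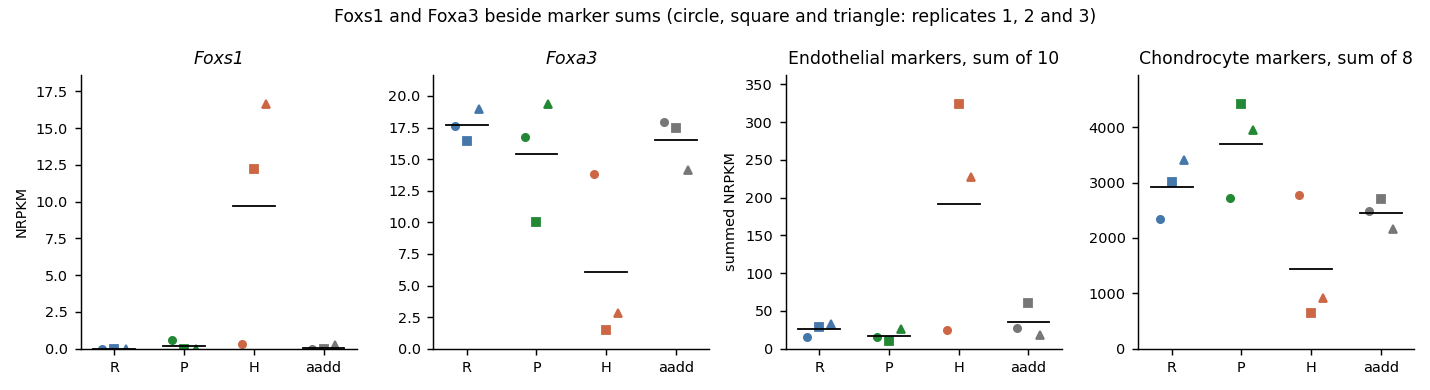
NRPKM of Foxs1 and Foxa3 and summed NRPKM of 10 endothelial and 8 chondrocyte markers in each library (linear axes from 0, lines at group means). Hypertrophic replicates 2 (square) and 3 (triangle) are high for Foxs1 and endothelial markers and low for Foxa3 and chondrocyte markers, and replicate 1 (circle) is not.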

How the data were processed

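RNA of LCM-captured cells was amplified (NuGen Ovation V2) and made into Nextera libraries. The authors removed low-quality, multi-aligned and duplicate reads and used mm10 and GeneSpring. The submitters' processing notes name TopHat. The authors deposited RPKM that they had also normalized across libraries (NRPKM). The scaling and the use of strand are not given in the sources used here.

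The log2 of NRPKM plus 0.1 was fitted in limma 3.58.1 (R 4.3.3), checked on simulated data, and Python 3.11.15 made the plots. Fold changes refer to this scale, except lower bounds. The 10936 rows at 5 NRPKM or more in 3 libraries entered, in fits of the 6 libraries compared. P was adjusted by Benjamini-Hochberg over all rows tested. Reads were estimated by taking the commonest value per kilobase in single-exon receptor and keratin-associated genes as 1 read. Of these values, 72.8% to 78% lay within 0.02 of whole reads, and limits from them cover counting error only. The file gives no counts.

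All 44 forkhead rows are accounted for, and those passing the filter are named with their values, the rest by range, with values where all 3 libraries of a group reached 1 NRPKM. Foxs1 was singled out after its values were seen. The members and gene lists were chosen with earlier results of these data known. For WT proliferative and resting, libraries with the same number deviated together from the means of their groups, with correlations across genes of r = 0.281, 0.179 and 0.198. The main counts, SE and P values come from fits that do not use this pairing. Fits with the replicate number as a block were run beside them, and the blocked value is given where it changes a call. Marker lists for osteoblast (117 to 1870 NRPKM summed), skeletal muscle (7.33 to 86.0), erythroid (24.1 to 170), epidermis (2.20 to 124) and Schwann cells (1.21 to 28.1) were also summed per library. A few genes counted in the lists are not reported by name here.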

Additional observations from a re-analysis of the deposited data

How the results depend on the processing

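Every comparison was refitted with another pseudocount (1), without the filter, with the filter taken over its own 6 libraries, after median-of-ratios or quantile scaling, in 1 fit of all 12 libraries, with the replicate number as a block, and without each library in turn. Over the single genes and comparisons, 888 values stayed on their side of the criteria, 11 newly met them, 33 no longer did, and 0 called values changed sign. Most of the 888 were values called in neither fit, so they do not measure how stable the calls were. The 33 losses all fell on the few called values. Only Foxo1 between hypertrophic and resting cells and Foxn3 between hypertrophic and proliferative cells kept their call in all 13 alternatives. With no filter, the forkhead genes called numbered 6 between hypertrophic and proliferative cells, 4 between aadd and resting and 2 over the 4 groups. These fits tested 39, 38 and 40 forkhead rows and called 9.42%, 5.82% and 3.93% of all genes. The 6 included Foxj1, Foxl1, Foxn3, Foxo4 and Foxs1, and the 4 were Foxl1, Foxo6, Foxp1 and Foxr2. Leaving out 1 library gave 1 to 5 called genes between proliferative and resting cells, 1 to 4 between hypertrophic and proliferative, 1 to 4 between hypertrophic and resting, 0 to 2 between aadd and resting (0 without aadd replicate 2 or 3) and 2 to 7 over the 4 groups. With the replicate block the counts were 2, 3, 4, 2 and 3 in that order. Outside proliferative against resting cells, same-numbered libraries correlated between -0.097 and 0.28. The highest, aadd replicate 2 with resting replicate 2, lay within the range seen for proliferative against resting cells, and the others lay below it. Same-numbered WT libraries shared their Xist or Y-linked pattern, so a common source is not excluded by the lower correlations. In those comparisons the block removed Foxo4 and added Foxa3 and Foxp2 between hypertrophic and proliferative cells, and it removed Foxp4 over the 4 groups. Values under 5 NRPKM rest on few reads, so a missing call in the low rows does not show equal levels.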
